A study of Mus musculus with 4 samples.

Results

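The 6 genes of the Ly6 family followed here in RAW 264.7 cells given Lactobacillus bulgaricus were Ly6a, Ly6c1, Ly6c2, Ly6e, Ly6d and Lypd8. They had 6 of the array's 39429 probes: 5 of the 6 genes had a probe, of 20971 genes with one. Probes were assigned by matching their accession to the mouse gene symbol. The list was drawn up with the 6 h ratios known, so the 6 h values are a description and no test is attached to them. Ly6c2 had no matched probe and is described only by its promoter.

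RAW 264.7 is a mouse macrophage-like line of BALB/c origin, transformed by Abelson leukaemia virus. Cells were kept for 1, 4 or 6 h with L. bulgaricus, a yogurt bacterium, at 10 bacteria per cell (multiplicity of infection), and the group they were set against was untreated. Each of the 4 conditions had 1 two-colour array, with RNA pooled in equal amounts from 3 cultures in Cy5 and a common Cy3 reference, a pool of all conditions according to the labels. All 4 arrays sat on 1 slide in order of time, and an effect of position on the slide cannot be told apart from one of time. With 1 array per condition there was no replicate check, the spread between cultures cannot be seen, and no p-value is given. The study addressed the course of gene expression in the cells after the bacteria were added.

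Ly6 proteins are small surface proteins with a disulphide-rich fold, most of them held in the membrane by a glycosylphosphatidylinositol (GPI) lipid anchor. Several are used to sort blood cells: Ly6a is the stem cell antigen Sca-1, which is also induced on activated lymphocytes by interferons, and the Ly6c antigen marks inflammatory monocytes. Ly6e is an interferon-induced protein that restricts the entry of coronaviruses. Ly6d marks early B-lineage progenitors and stratified epithelium. Lypd8 is a secreted and surface protein of colonic enterocytes that keeps flagellated bacteria away from the epithelium. Ly6a, Ly6c1, Ly6c2, Ly6d and Ly6e lie in a gene cluster on chromosome 15, while Lypd8 lies on chromosome 11.

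Ly6c1 and Ly6c2 are close copies, and the Ly6c antigen on monocytes is attributed mainly to Ly6c2. The sequences shown are the 250 bases before the start of the 3 members in the promoter table from RefSeq (GRCm38.p6), given because the ratios of Ly6c1 and Lypd8 both passed the rule at 6 h, from different channels, and because Ly6c2 was not measured. Where a gene had several starts the first listed is shown, 5′ to 3′ on the gene's strand, and capitals mark matches on either strand to the NF-kB letters, GGGA and CC with any 4 bases between them.
Ly6c1, chr15:75048838-75049087, minus strand: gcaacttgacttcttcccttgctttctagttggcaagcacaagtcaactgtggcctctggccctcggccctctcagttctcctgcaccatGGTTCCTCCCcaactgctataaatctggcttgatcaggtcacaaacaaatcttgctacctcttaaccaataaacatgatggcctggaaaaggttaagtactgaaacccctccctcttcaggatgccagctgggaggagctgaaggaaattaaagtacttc
Ly6c2, chr15:75111972-75112221, minus strand: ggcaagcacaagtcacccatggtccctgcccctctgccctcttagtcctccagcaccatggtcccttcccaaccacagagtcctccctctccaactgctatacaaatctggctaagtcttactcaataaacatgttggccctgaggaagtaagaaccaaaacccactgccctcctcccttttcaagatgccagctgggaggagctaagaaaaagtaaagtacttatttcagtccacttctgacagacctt
Lypd8, chr11:58378782-58379031, plus strand: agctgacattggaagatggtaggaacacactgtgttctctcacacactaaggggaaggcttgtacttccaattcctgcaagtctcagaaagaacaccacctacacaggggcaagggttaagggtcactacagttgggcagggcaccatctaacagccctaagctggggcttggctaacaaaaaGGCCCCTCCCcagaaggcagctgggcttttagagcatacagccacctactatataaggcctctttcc

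The Ly6c1 and Ly6c2 windows aligned over 231 positions with 73.6% identity and shared a run of 20 bases. The longest run shared by Ly6c1 and Lypd8 was 8 bases. The NF-kB letters occurred in the Ly6c1 window at positions -160 to -151 from the start and in the Lypd8 window at -67 to -58, and not in that of Ly6c2. They occur in 17.6% of 32851 windows of the same length, so a match is a description and not a site. The letters of the interferon-stimulated response element (GAAA, any 2 bases and GAAA, in 2.98% of windows), of the interferon-gamma activated site (TTCNNNGAA, 7.02%) and of AP-1 (TGANTCA, 6.75%) were found on neither strand of these 3 windows, and no match overlapped another.

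Signals are given as the scanner software's processed intensities, after its background subtraction and dye normalization, and differences as the log2 of Cy5 over Cy3 on a treated array minus that on the untreated array, after normexp correction and loess. A member counted as higher or lower when this difference was at least 1 in size (2-fold). Replicate spots of probes of similar brightness gave an SD of 0.12 for such a difference at each of the 3 times, from 123 to 126 probes, a measure of spot error that leaves out differences between cultures.

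Ly6a and Ly6c1 stood above untreated cells at 1 h, close to them at 4 h and furthest above them at 6 h; Ly6a passed the rule at 1 h and 6 h, and Ly6c1 at 6 h. Ly6a had processed Cy5 signals of 95.9 in untreated cells and 337, 106 and 485 after 1, 4 and 6 h. Its Cy3 signals on the same arrays were 482, 515, 453 and 299. The 4 h signal lay close to the untreated one, and Cy5 passed the reference at 6 h alone. The log2 difference of Ly6a was 1.10 at 1 h, 0.07 at 4 h and 1.88 at 6 h, the last a 3.69-fold difference. In Cy5 alone, without the reference, the differences were 0.997, 0.04 and 1.51, so most of the 6 h difference was in the cells' own channel. The call of Ly6a at 1 h was thus lost in Cy5 alone, and also without normalization within arrays, at 0.64; it held in 13 of 15 settings, and the difference was 1.72 ± 0.37 in the scanner software's ratios.

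Ly6c1 was read by a brighter and a dimmer probe. The brighter probe (A_55_P2064771) had Cy5 signals of 271, 726, 380 and 1419 in untreated cells and at 1, 4 and 6 h, and Cy3 signals of 1077, 1417, 1423 and 1030. As for Ly6a, the treated signal peaked at 1 h and again at 6 h, and the reference did not follow it. The log2 differences were 0.85, -0.09 and 1.92, and in Cy5 alone 1.05, 0.26 and 1.91, with a reference that differed by -0.02 at 6 h. The dimmer probe (A_55_P1961499) had Cy5 signals of 13.1, 42.4, 23.0 and 101 and Cy3 signals of 29.7, 52.5, 43.7 and 35.4. On the untreated array it was not well above background in either channel, so it gave no value against untreated cells. It showed the same order of the 4 arrays. As a bound in Cy5 the dimmer probe was at least 1.60-fold higher at 6 h than in untreated cells. Both probes were measured at 4 and 6 h. Between these times, after normexp and loess, the brighter one differed by 2.01 and the dimmer one by 0.59. In the scanner software's ratios, with its error, the differences were 2.37 ± 0.34 for the brighter probe and 2.44 ± 0.49 for the dimmer. The gap between the probes thus depended on the processing. How much of either probe's signal came from Ly6c2 was not tested.

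**Figure D1:**
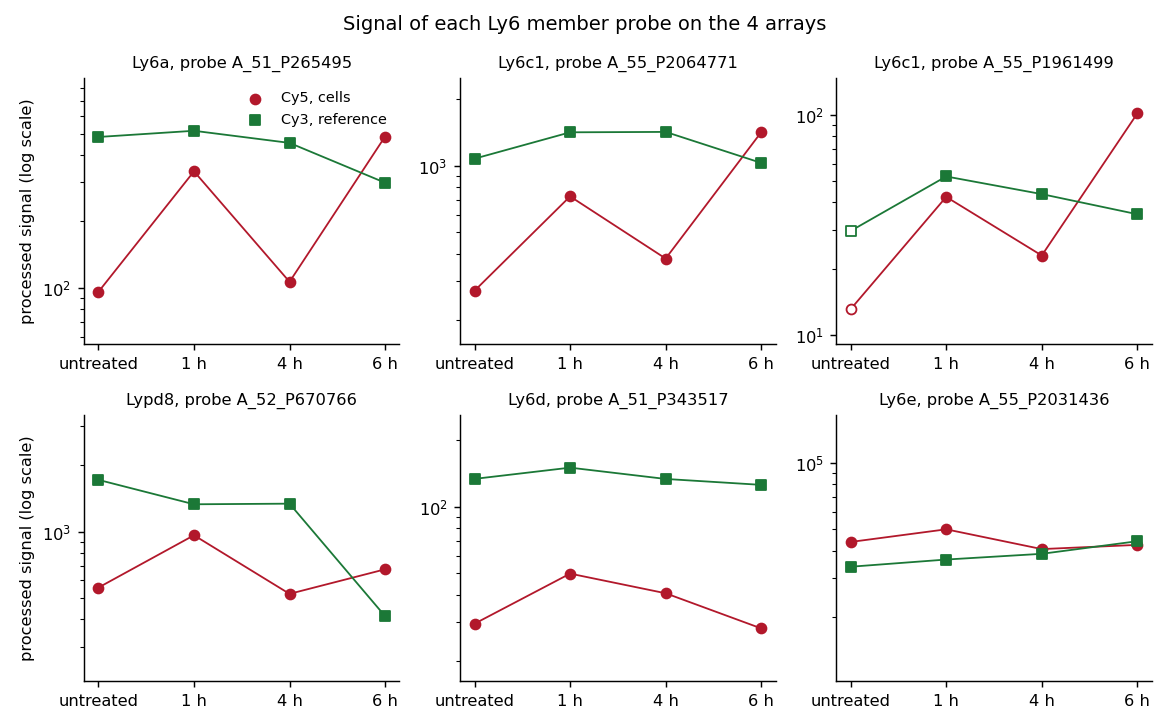
Processed signal (log scale) of the 6 member probes in untreated cells and at 1, 4 and 6 h, with circles for Cy5 (cells) and squares for Cy3 (reference); open symbols were not well above background. Cy5 of Ly6a and of both Ly6c1 probes was higher at 1 h and 6 h than at 4 h, and Cy3 of Lypd8 was lowest at 6 h.

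Lypd8 gave ratios like those of Ly6a, but at 6 h mostly from the other channel. Its Cy5 signals were 557, 962, 522 and 674 in untreated cells and at 1, 4 and 6 h, and its Cy3 signals 1714, 1328, 1337 and 413. The reference, labelled as the same RNA on every array, was thus lowest on the 6 h array. The linear ratio of cells to reference after normexp (offset 50) and loess was averaged over the 4 arrays. It was 0.646 for Ly6d, 0.683 for the brighter Ly6c1 probe, 0.767 for Ly6a and 0.785 for Lypd8. In processed signals the ratio of the dim Ly6d probe was lower, at 0.221, 0.331, 0.303 and 0.224 in untreated cells and at 1, 4 and 6 h. Cy5 of the samples was thus on average below Cy3 of the reference that is said to pool them. No dye swap was made, so a constant dye effect of a probe cannot be told apart from the makeup of the reference. Neither was tested. The log2 differences of the ratio were 0.93, 0.24 and 1.82. In Cy5 alone they were 0.68, 0.04 and 0.17, while the reference alone differed by -0.25, -0.21 and -1.65. Before dye normalization the Cy5 spot medians were 380 at 6 h and 557 in untreated cells, and the Cy3 medians 237 at 6 h and 1040 on the untreated array. The reference was lower by at least 1 at 6 h in 1.41% of 10320 genes measured. At 6 h Lypd8 thus passed the rule in the ratio and not in Cy5 alone.

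Ly6d did not pass the rule at any time. Its Cy5 signals were 29.5, 49.8, 40.6 and 28.1 in untreated cells and at 1, 4 and 6 h, and its Cy3 signals 134, 150, 134 and 126. The log2 differences were 0.24, -0.01 and -0.10, of which the 1 h value was larger than the spot error and those at 4 and 6 h were within it. In Cy5 alone they were 0.03, 0.02 and -0.03. The reference was brighter than the cells on all 4 arrays, with normalized log2 ratios of -0.67, -0.43, -0.68 and -0.77. Of 10110 genes measured on all arrays, 18.6% lay below the reference on every one, and 0.742% had a highest ratio as low as that of Ly6d.

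Ly6e, the interferon-induced member, had its only spot marked as non-uniform in Cy5 on all 4 arrays, so the filter on outlier spots left it without a value. Its processed Cy5 signals were 43751, 49924, 40618 and 42440 in untreated cells and at 1, 4 and 6 h, and its Cy3 signals 33788, 36419, 38663 and 44093. These processed Cy5 signals showed no trend with time and the processed Cy3 signals were higher on each later array. Before dye normalization the order differed. The Cy5 spot medians were 55900, 51977, 41165 and 37538, lower on each later array, and the Cy3 medians 20262, 19814, 19968 and 20059. With outlier spots kept, the log2 differences were -0.04, -0.23 and -0.33, and in Cy5 alone 0.06, -0.02 and -0.06. The scanner software's own log ratios, with its error, gave 0.08 ± 0.29, -0.30 ± 0.29 and -0.43 ± 0.29.

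Against untreated cells, Ly6a was the 1 of 4 members with a value that was higher at 1 h, and 0 were lower; of 10369 genes measured 0.328% were higher and 0.0482% lower. At 4 h 0 of 4 members were higher and 0 lower, against 0.242% and 0.213% of 10339 genes. At 6 h 3 of 4 (Ly6a, Ly6c1 and Lypd8) were higher and 0 lower, against 0.456% and 0.466% of 10311 genes. Since the members were chosen on the 6 h values, nothing is read from that count. At 6 h Ly6c1, Ly6a and Lypd8 ranked 7, 9 and 10 from the top, and Ly6d 6509. At 1 h they ranked 46, 30 and 40, and Ly6d 961. The median of all genes was 0.06, 0.00 and -0.01 at the 3 times. The scanner software's processed ratios gave larger differences, at 6 h 3.03 ± 0.37 for Ly6a, 2.45 ± 0.35 for the brighter Ly6c1 probe, 2.33 ± 0.33 for Lypd8 and 0.02 ± 0.46 for Ly6d, where ± is the software's error of the difference.

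**Figure D2:**
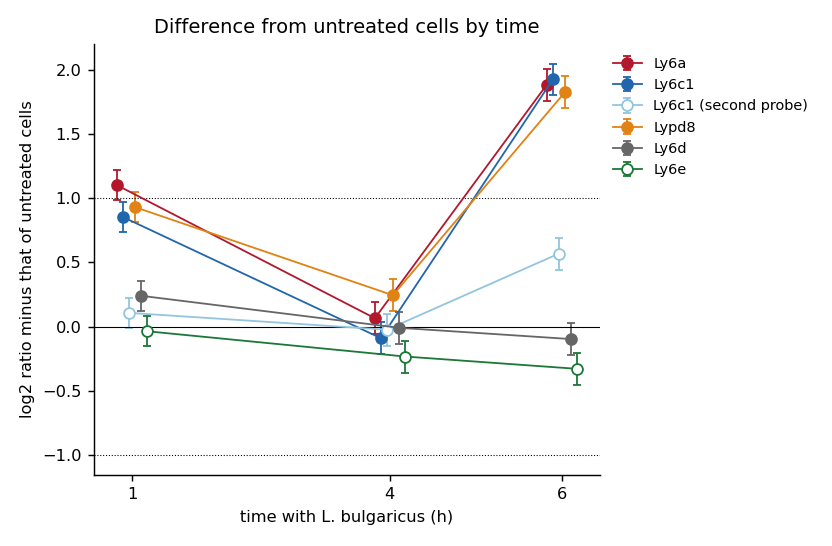
Log2 ratio of each member probe minus that of untreated cells, against hours with L. bulgaricus; bars are 1 SD of replicate spots (0.12), dotted lines the rule of size at 1 and -1, and open symbols probes left out of the gene values. Ly6a, the brighter Ly6c1 probe and Lypd8 stood at 1.88, 1.92 and 1.82 at 6 h, and at 0.07, -0.09 and 0.24 at 4 h.

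The treated arrays were also compared with each other. From 1 to 4 h the log2 difference was -1.04 for Ly6a, -0.69 for Lypd8, -0.25 for Ly6d and -0.54 for Ly6c1 as the mean of its 2 probes, so 1 of 4 members was lower by the rule and 0 higher, against 0.38% and 0.038% of 10537 genes. From 4 to 6 h it was 1.82 for Ly6a, 1.30 for Ly6c1, 1.58 for Lypd8 and -0.09 for Ly6d, so 3 of 4 were higher and 0 lower, against 0.19% and 0.143% of 10505 genes. In Cy5 alone Lypd8 differed by 0.14 from 4 to 6 h, with a reference that differed by -1.44. These comparisons share arrays with those against untreated cells. The members were chosen on the 6 h values, so nothing is read from the count from 4 to 6 h. The range of the log2 ratio over the 4 arrays was 1.88 for Ly6a, 2.01 for the brighter Ly6c1 probe and 1.82 for Lypd8. Ranges as wide were reached by 0.228%, 0.188% and 0.297% of 10110 genes. Each of these ranges has the 6 h ratio as its upper end, and the members were chosen on the 6 h values, so nothing is read from these shares. The range of Ly6d was 0.34, reached by 34.7%.

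The genes nearest to Ly6a, by Euclidean distance over the 3 log2 differences among 10115 genes, were Klk1 (distance 0.18), Klk1b5 (0.34), Saa1 (0.60), Aqp8 (0.61) and Tspan1 (0.85). Klk1 and Klk1b5 are tissue kallikreins, Saa1 an acute phase protein and Aqp8 a water channel of colonic epithelium. Klk1b5, Klk1, Aqp8, Saa1 and Car4, a membrane carbonic anhydrase, were nearest to Ly6c1 (0.33 to 0.85). For Lypd8 the nearest were Klk1, Klk1b5, Saa1, Spink1, a trypsin inhibitor, and Car4 (0.11 to 0.72). The distance between members was 0.30 for Ly6a and Ly6c1, 0.25 for Ly6a and Lypd8, and 2.16 for Ly6a and Ly6d. At 6 h Klk1 differed by 1.96 in Cy5 alone and 0.06 in the reference, and Aqp8 by 1.84 and 0.16, as Ly6c1 did and Lypd8 did not. The reference of Klk1b5, Tspan1 and Spink1 differed by -0.42, -0.41 and -0.36, near the -0.37 of Ly6a. In Cy5 alone these 3 genes differed by 1.51, 1.79 and 0.90. For Saa1 the reference differed by 0.34 and for Car4 by -0.08, with 2.69 and 1.07 in Cy5 alone.

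**Figure D3:**
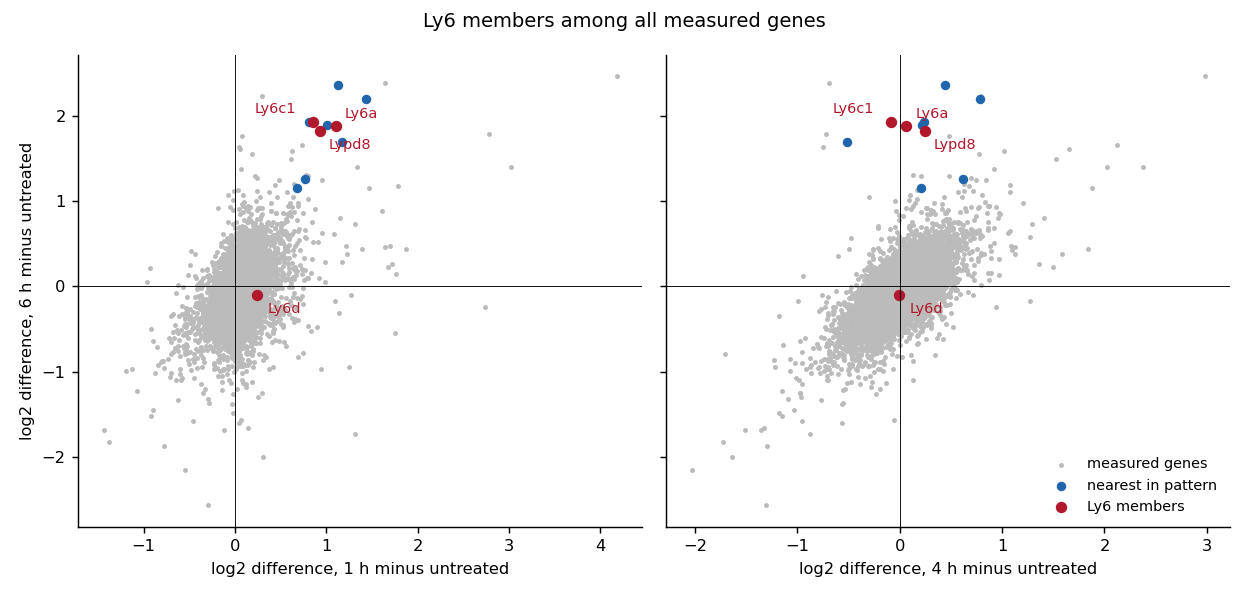
Log2 difference from untreated cells at 6 h (vertical) against that at 1 h (left) and 4 h (right), for all genes measured at the 3 times (grey), the genes nearest in pattern (blue) and the members (red). Ly6a, Ly6c1 and Lypd8 lie high at 6 h and between -0.09 and 0.24 at 4 h, and Ly6d lies in the body of the plot.

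The markers of the line itself were present on every array: 10 of 15 monocyte and macrophage markers with a probe were well above background in Cy5 on each of the 4, while Ccr2, Marco and Mrc1 were so on none. Their summed Cy5 signal was 73081, 84457, 84529 and 68685 in untreated cells and at 1, 4 and 6 h. By the rule 0 of the 9, 9 and 8 measured were higher at 1, 4 and 6 h, against 0.328%, 0.242% and 0.456% of all genes. The chemokine receptor gene Cx3cr1 was the 1 lower marker, of 9 measured at 4 h (-1.36) and of 8 at 6 h (-1.69). Of all genes 0.213% and 0.466% were lower at these times. Ccr2, like Ly6c, is known from inflammatory monocytes. Markers of intestinal epithelium were present as well, with 26, 26, 25 and 25 of 27 well above background in Cy5 in untreated cells and at 1, 4 and 6 h, and Slc26a3 on none. Their summed Cy5 signal was 11598, 20560, 15985 and 15980, and their summed Cy3 signal 35580, 30182, 29467 and 28276. Of those measured, 5 of 26 passed the rule upward at 1 h, and 3 and 6 of 25 did at 4 h and 6 h, against 0.328%, 0.242% and 0.456% of all genes; 1 was lower at 4 h, and the medians were 0.56, 0.36 and 0.49. The list was chosen with earlier results of these data known, so nothing is read from these counts and medians. The ends of the list at 6 h were Reg3b (2.46), an antibacterial lectin, and Aqp8 (1.69), against Lct (-0.79), the lactase gene, and Apoa4 (-0.67), an apolipoprotein. Single genes of the list differed in course: Aqp8 had Cy5 signals of 17.5, 150, 13.2 and 252 in untreated cells and at 1, 4 and 6 h, high at 1 h and 6 h as Ly6a was, and Reg3b had 76.3, 1908, 840 and 554, highest at 1 h. Their part in the Ly6 values was not tested.

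Markers of other cell types known to carry Ly6 antigens were less often above background. Of 10 endothelial markers 4, 4, 4 and 5 were well above background in Cy5 in untreated cells and after 1, 4 and 6 h, Cdh5, Tek, Tie1, Emcn and Esam on none, with summed Cy5 signals of 1340, 1728, 1465 and 1640. Of 12 T and B cell markers 7, 6, 6 and 7 were, Cd8b1, Ms4a1 and Cd79a on none, with sums of 675, 673, 582 and 677. Of 11 neutrophil markers 4, 5, 3 and 4 were, Mpo, Ltf, Ngp, Cxcr2, Mmp8 and Retnlg on none, with sums of 460, 468, 356 and 434. Of 11 markers of stratified epithelium 1 was on each array, Trp63, with sums of 544, 551, 457 and 474. Of 8 fibroblast markers 3, 3, 5 and 3 were, Col1a1, Lum and Pdgfrb on none, with sums of 181, 333, 710 and 487. In these 5 lists 0 genes passed the rule at any time, but few were measured. At 6 h these were 3 endothelial, 5 T and B cell, 3 neutrophil, 1 stratified epithelial and 3 fibroblast genes. Of all genes 0.456% were higher and 0.466% lower at 6 h, so nothing is read from the count of 0. The cultures were of a macrophage-like line, and whether any cells of these other types were in them was not tested. In pooled RNA, fewer cells of a type and less RNA per cell cannot be told apart.

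The wider Ly6/uPAR family, whose members share the Ly6 fold, was mostly undetected. Of 48 genes listed 42 had a probe, and 8 were measured at 6 h and in untreated cells. Of these 8, 3 were higher and 1 lower at 6 h, against 0.456% and 0.466% of all genes. Without the members the counts were 0 and 1 of 4, with a median of 0.08. The 3 higher genes were thus members, chosen on the 6 h values, and nothing is read from their count. Ly6i and Ly6f, close relatives of Ly6a and Ly6c1, were not well above background in Cy5 on any array. Ly6m had Cy5 signals of 85.6, 198, 188 and 219 in untreated cells and at 1, 4 and 6 h, and log2 differences of 0.37, -0.08 and 0.25, highest at 1 h. Its reference alone differed by 0.51 at 6 h. Ly6g5b stood at 0.20, 0.48 and 0.24, and Cd59a, an inhibitor of complement lysis, at -0.07, 0.02 and -0.07. Plaur, the urokinase receptor, was the lower gene, at -1.08 at 6 h, with 0.24 in Cy5 alone.

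In the order of the genes on chromosome 15, Ly6a and Ly6c1 are neighbours. From Ly6d to Ly6g, both included, the annotation lists 15 protein-coding genes, 11 with a probe. Of these, 4 were measured at 6 h and in untreated cells and 2, Ly6a and Ly6c1, were higher. The other 2 were Ly6d and Ly6m. Ly6a and Ly6c1 were chosen with their 6 h values known, so nothing is read from this count. Ly6e, which had no value to set against the rule, lies between Ly6m and Ly6i in this order. Ly6d, which did not pass the rule, thus shares the region with Ly6a and Ly6c1, which did.

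**Figure D4:**
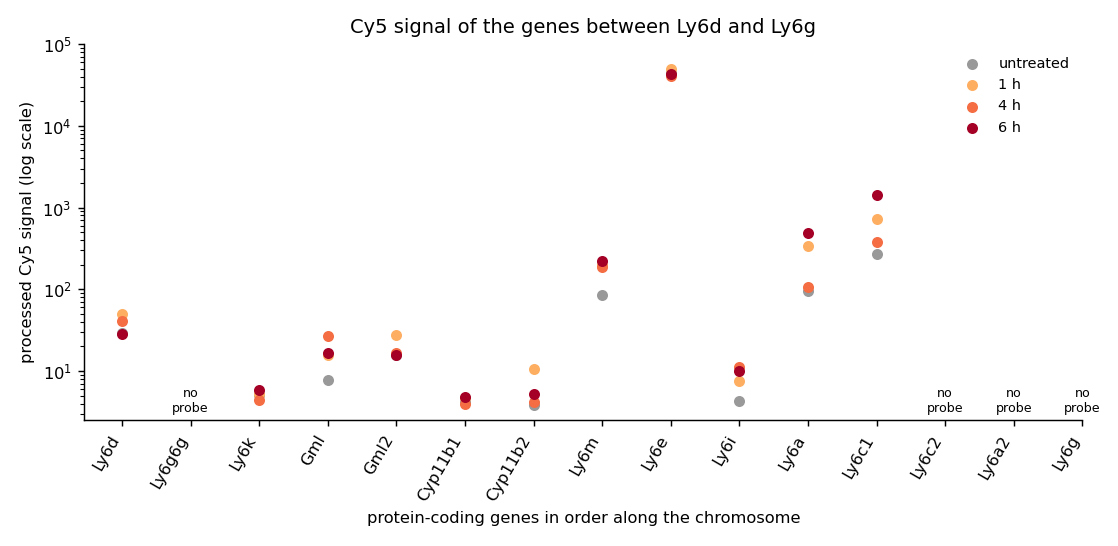
Processed Cy5 signal (log scale) of the brightest probe of each protein-coding gene from Ly6d to Ly6g, in chromosome order, in untreated cells and at 1, 4 and 6 h. Only the points of 1 gene can be compared: those of Ly6a and Ly6c1 spread by time, and those of Ly6e and Ly6d lie close together.

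The genes that assemble and attach GPI anchors did not pass the rule. Of 26 measured at 6 h 0 were higher and 0 lower, with a median of -0.08 and the ends at 0.23 for Piga, a subunit of the first enzyme of the pathway, and -0.52 for Mppe1, a phosphodiesterase that trims the anchor. At 1 h and 4 h 0 of 27 passed, with medians of 0.05 and -0.11. Of all genes 0.328%, 0.242% and 0.456% were higher at 1, 4 and 6 h, and 0.0482%, 0.213% and 0.466% lower. Nothing is thus read from a count of 0 in a list of this size. Ly6a and Ly6e are known to respond to interferon. Interferon signalling and target genes had 0 of 30 past the rule at 1 h and 4 h, against the same shares of all genes. At 6 h 1 of the 30 genes was higher, the chemokine gene Cxcl10 at 1.11. Their medians were 0.08, -0.06 and -0.16, and at 6 h 11 lay above 0 and 19 below, with Gbp2 at 0.36, Oas2 at -0.86 and Ifi204 at -0.93. Ly6a, chosen with its 6 h value known, stood at 1.88, and a part of interferon in it was not tested.

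**Figure D5:**
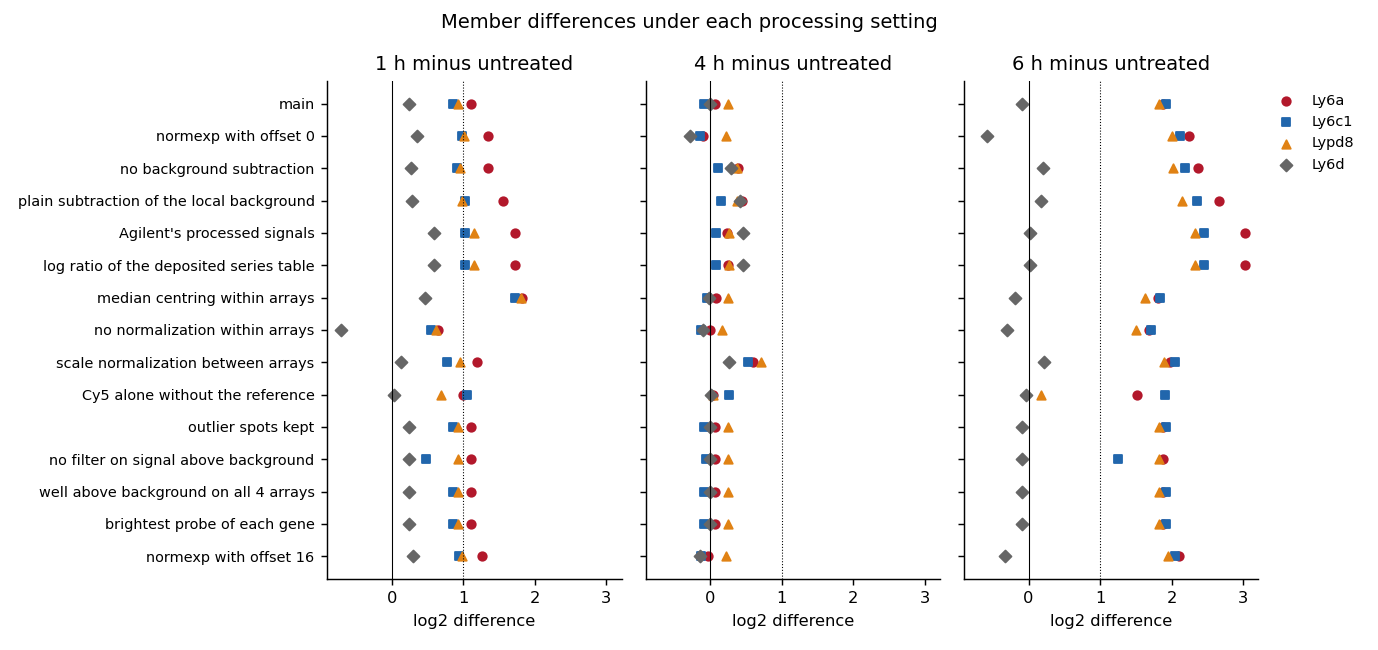
Log2 difference of Ly6a, Ly6c1, Lypd8 and Ly6d from untreated cells at 1, 4 and 6 h under each processing setting; the dotted line is the rule of size. At 6 h Ly6a ran from 1.51 to 3.03 and Ly6c1 from 1.25 to 2.45, and Lypd8 fell short of 1 in Cy5 alone, at 0.17.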

How the data were processed

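The submitters' processing notes name Agilent Feature Extraction, version 10.5.1.1. The deposited scanner files hold intensity values (spot and local background medians, and processed signals), a log10 ratio of Cy5 over Cy3, and the software's error score of that ratio; the deposited series table holds the same log10 ratio to within 0.005, checked by feature number. Further steps by the authors are not given in the sources used here.

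Median intensities were corrected with normexp (offset 50) and normalized by loess within arrays in limma 3.58.1 under R 4.3.3, with control and outlier spots at weight 0 and no step between arrays. Outlier spots (1.55% to 1.84% per array) were left out, and 0 spots were saturated. Cy5 was well above background at 49.5% to 51.8% of spots; the few arrays limit the precision. Probes entered a comparison only if Cy5 and Cy3 were well above background on each of its 2 arrays, and probes of a gene were averaged. Of 39429 probes 27655 matched a gene through unversioned accessions in a RefSeq table of GRCm38.p6; the array was annotated on another build. Single-channel values followed Aquantile normalization. A bound sets the bright array's Cy5 against the dim array's lowest value well above background, or the dim probe's own where that is higher, and is open to dye bias.

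Members, 10 gene lists and tests were chosen with earlier results of these data known. Named genes were the members, measured relatives, the 5 nearest in pattern to each member past the rule, and up to 2 at each end of a list. The design had 14 alternatives, and 1 (offset 16) was added after seeing the data. The steps were tested on simulated data. Promoters were aligned locally with Biopython 1.88, under Python 3.11.15. Plots used matplotlib 3.10.9.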

Additional observations from a re-analysis of the deposited data

Results flagged for a closer look

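Ly6c1 had differences from untreated cells of opposite sign at 4 h and at the other times. Its log2 difference at 4 h less that at 1 h was -0.94, and that at 6 h less that at 4 h was 2.01; the 4 h value itself was -0.09, within the spot error. Ly6d differed in sign between 1 h and the later times, by -0.25 at 4 h and -0.34 at 6 h, from log2 differences of 0.24, -0.01 and -0.10. The values at 4 and 6 h were within the spot error. In processed signals Ly6d stood at 0.59, 0.46 and 0.02, with no change of sign. Its 1 h value ran from -0.72 to 0.59 over the settings. With 1 array per time none of these differences was tested.

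Probes left out of the gene values against untreated cells also carried signal. The dimmer Ly6c1 probe had a processed Cy5 signal 7.70 times that of untreated cells at 6 h, where the untreated spot was not well above background. The Ly6e probe, marked as non-uniform on every array, had 1.14 times the untreated Cy5 signal at 1 h, 0.928 times at 4 h and 0.970 times at 6 h; the scanner software's log2 ratio at 1 h differed by 0.08 ± 0.29.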

How the results depend on the processing

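At 6 h the count of members past the rule was 3 under 13 of the 14 alternatives of the design and with the added offset, and 2 in Cy5 alone, where Lypd8 stood at 0.17. At 4 h it was 0 throughout. The 1 h count of 1 depended on the setting: it was 2 with offset 0 and with plain subtraction, 3 with processed signals, the deposited table, median centring or a 1.5-fold rule, and 0 without normalization within arrays. In Cy5 alone it was 1, but of Ly6c1 (1.05) and not Ly6a (0.997). Calls over all genes moved as well: 34 of 10369 were higher at 1 h in the main setting, 46 with offset 0 and 67 with plain subtraction. Processed signals or the deposited table gave 117, the 1.5-fold rule 135, median centring 3030 and no normalization 17. Without normalization the median of all genes was -0.32, with median centring 0.86; less that median Ly6a stood at 0.96 under both. The count of 4 between successive times was 2 with scale normalization and 2 in Cy5 alone, 3 without background subtraction or without normalization, 5 with the 1.5-fold rule and 6 with median centring. From 1 to 4 h 3177 of 10537 genes were lower with median centring and 177 with the 1.5-fold rule, against 40 in the main setting. Ly6c1 at 4 h ran from -0.14 to 0.52 and Ly6d at 6 h from -0.58 to 0.22, so neither had a settled sign. Of all genes, 229 were higher and 195 lower at 6 h in processed signals, against 47 and 48, and 41 and 110 with median centring. The cause of these shifts was not tested. No sign of a called difference reversed. No paired analysis was possible because each condition had 1 array. Ly6d and the dimmer Ly6c1 probe lie close to background, which limits both.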

Other observations

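A pattern chosen after the values were seen was counted over all genes: at least 0.5 (log2) above untreated at 1 h, at least 0.5 below the 1 h value at 4 h, and at least 0.5 above the 4 h value at 6 h. It held in 20 of 10115 genes (0.198%), 3 of them Ly6a, Ly6c1 and Lypd8. In Cy5 alone Lypd8 lacked the last step, with 0.14 from 4 to 6 h, while the reference differed by -1.44. The other 17 included Mptx1 (2.78, -0.72 and 1.78 at 1, 4 and 6 h), a mucosal pentraxin, Sycn (1.64, -0.69 and 2.38), a zymogen granule protein, Clca1 (1.61, 0.32 and 0.88), a goblet cell protein, and Gsdmc4 (1.39, -0.49 and 0.43), a gasdermin. Jun, an AP-1 subunit, was also among them (0.50, -0.09 and 0.67). All of these values share the untreated array, and no test was made.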
